A study of Mus musculus with 6 samples.

Results

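Dying cells are removed by neighbours or by macrophages that recognise them, and the 8 genes described here encode receptors, bridging proteins and an adaptor of that process. They are Megf10, Gulp1, Mertk, Axl, Tyro3, Gas6, Mfge8 and Itgav, taken by name from a table of 13024 genes, and all 8 had a row and passed the filter on low counts. The group was chosen by the difference in Megf10 level between the mutant and control libraries of these same data, and the other 7 genes by their known role. The differences between mutant and control are therefore given for these genes as descriptions without a test. The study asked which transcripts change when the transcription factor Gata3 is removed from the embryonic mouse lens. RNA was sequenced from 6 pools of lenses taken at embryonic day E14.5 from mice of a mixed C57BL/6 and FVB background, each pool made of 10 lenses from 5 embryos. The 3 mutant pools (labelled Gata3 -/-, here CKO) were homozygous for a floxed Gata3 allele and carried the Pax6-Cre transgene, which is active in the embryonic head ectoderm that forms lens and cornea. The 3 control pools, labelled wild type, carried no Cre. Sources differ on whether the controls were Gata3 f/wt or Gata3 f/f. An effect of Cre therefore cannot be told apart from an effect of Gata3 loss, and every mutant pool shares the same transgene.

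A dying cell exposes the lipid phosphatidylserine on its outer surface. The secreted proteins Gas6 and Mfge8 bind this lipid and bridge the dying cell to a receptor on the engulfing cell. Gas6 bridges to the receptor tyrosine kinases Tyro3, Axl and Mertk, known together as the TAM receptors, and Mfge8 bridges to integrins that contain the alpha v chain, which Itgav encodes. Megf10 is a transmembrane receptor with many EGF-like repeats and is the mammalian relative of the nematode receptor CED-1 and the fly receptor Draper. Gulp1 is the relative of CED-6, the adaptor that binds the inner tail of such receptors. In the eye, Mertk is best known for the daily uptake of photoreceptor tips by the retinal pigment epithelium. Fibre cells of the lens, in contrast, clear their nuclei and organelles while they stay in place.

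The libraries held 15157230 to 18811104 counted fragments. Levels are given as CPM, counts scaled to library size by the TMM method, and values after ± are the SD over the pools of a group (n = 3). Fold changes are log2 values, CKO against control, fitted by edgeR over every gene that passed the filter, with a standard error (SE) and a 95% interval. Gata3 itself had 202, 386 and 156 counts in control pools 1, 2 and 3 and 910, 1064 and 894 in the pools labelled CKO. Cre removes a single exon of the floxed allele, and a count over the whole gene does not show whether that exon was read, so these counts do not check the labels. Directions below are those of the libraries labelled CKO. Lens fibre genes were abundant in every pool, and the 13 fibre markers summed to 27046 to 80044 CPM in control and 21803 to 31194 in CKO. These sums overlapped, but 7 of the 13 fibre markers had groups that did not, all lower in CKO, beside 4.69% of all genes. The list holds Dnase2b, Bfsp2 and Lenep, which the paper names among its most downregulated mRNAs in these libraries. The mean log2 CPM over the list was 9.25 to 10.8 in control and 8.22 to 8.79 in CKO. Dnase2b, the nuclease that degrades fibre cell nuclei, had 12.9, 22.6 and 7.54 CPM in control and 0.973, 0.305 and 0.468 in CKO. The 5 lens epithelium markers summed to 865 to 1097 CPM in control, highest in control pool 2, and 853 to 877 in CKO. Control pool 2 held the highest sum of both lists and stood apart from the other 5 on the leading principal component. Tissue from around the lens was also read. The 9 mesenchyme markers with a row, of 10 listed, summed to 300.5 to 2216 CPM in control and 339.9 to 3880 in CKO, with control pool 1 and CKO pool 2 far above the rest. The same pools led for 5 pigment cell markers (53.3 to 309 CPM in control and 60.6 to 313 in CKO). The 11 retina markers summed to 1575 to 3374 CPM in control and 2336 to 3132 in CKO. In pools of whole tissue, fewer cells of a type and less RNA per cell cannot be told apart.

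Megf10, on chromosome 18 (57133090–57297467, forward strand of the mm10 build), was the member that separated the groups. Its level was 19.6, 23.1 and 18.8 CPM in control pools 1, 2 and 3 and 116, 91.4 and 77.4 CPM in CKO pools 1, 2 and 3. The lowest CKO pool lay far above the highest control pool. The means were 20.5 ± 2.29 CPM in control and 95.02 ± 19.7 in CKO, 4.63 times as high, with a log2 fold change of 2.21 (SE 0.17, 95% interval 1.80 to 2.62). Its pools did not overlap between the groups, and it was the only 1 of the 8 of which this held. In the whole table, 8.36% of genes had no overlap, 3.67% with CKO above control and 4.69% with CKO below. Since Megf10 was chosen for this difference, nothing is read from that count. Without both pools rich in mesenchyme markers the log2 fold change was 2.22. The control pools were close to each other, and the 3 CKO pools spread more, from 77.4 to 116 CPM. Lens fibre markers split the pools in the same way in the opposite direction, with a mean log2 CPM that was lower in every CKO pool than in any control pool, and their part in the level of Megf10 was not tested. Cells outside the lens that are known to use Megf10 include retinal interneurons, glia and muscle precursors. The 5 glia markers with a row, of 6 listed, summed to 99.7 to 188 CPM in control and 144 to 163 in CKO, and the 2 muscle precursor markers with a row, of 5, to 6.91 to 14.0 in control and 4.02 to 12.6 in CKO. For retina, glia and muscle precursors the control and CKO sums overlapped. The mean log2 CPM of the glia list did not, at 4.08 to 4.19 in control and 3.91 to 4.05 in CKO, and Gfap, a filament protein of astrocytes, was the 1 glia marker whose groups did not overlap, with 4.37, 9.94 and 4.64 CPM in control and 2.53, 2.64 and 2.86 in CKO. The part of these cells in the level of Megf10 was not tested.

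Gulp1, the adaptor, did not follow Megf10. Its level was 58.9, 61.3 and 58.9 CPM in control and 52.4, 59.0 and 53.4 in CKO. CKO pool 2 lay among the control values and the other two CKO pools below them. Of the 8 genes it varied least across the pools, with a highest value only 1.17 times the lowest. The log2 fold change was -0.12 (SE 0.079, 95% interval -0.31 to 0.07), an interval that leaves no room for a change near that of Megf10. The ratio of both genes within a library does not depend on how libraries are scaled. Per length of transcript (CPM per kb of exon), Megf10 stood at 0.156 to 0.184 times the level of Gulp1 in the control pools and at 0.706 to 1.08 times in the CKO pools. The receptor transcript was therefore at a level per kb near that of the adaptor in CKO pool 1, and far below it in the control pools. These ratios use the merged exons of each gene (7718 bases for Megf10 and 3758 for Gulp1). With the longest transcript of each (7514 and 3138 bases), Gulp1 would stand slightly above Megf10 in CKO pool 1.

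**Figure D1:**
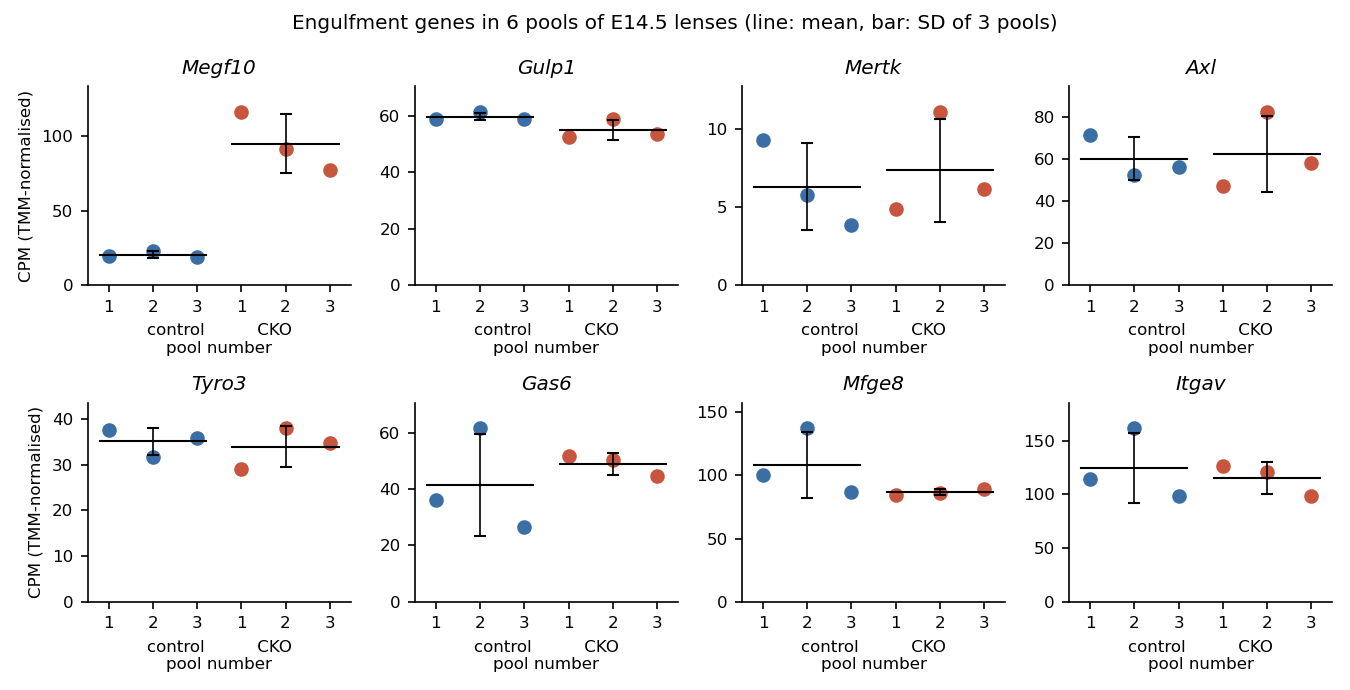
Level of each of the 8 genes in the 6 lens pools, in TMM-normalised CPM on axes from 0, with control pools in blue and CKO pools in red. Lines are group means and bars the SD of 3 pools. Megf10 is higher in all 3 CKO pools, Gulp1 is nearly level, Mertk and Axl peak in control pool 1 and CKO pool 2, and Gas6, Mfge8 and Itgav peak in control pool 2.

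The genes whose level followed that of Megf10 most closely were sought by the Pearson correlation of log2 CPM over the 6 libraries, which here also reflects the split into control and CKO. The 10 nearest had correlations of 0.974 to 0.993. In all 10 the groups did not overlap, with CKO above control, as in 3.67% of all genes. They were picked by likeness to Megf10, itself chosen for that split, so nothing is read from this count. The 10 were Nptx2, Ddah1, Atp10d, Gramd1b, Parn, Tpmt, Cask, Cnn3, Abhd1 and Dcdc2a. Their differences were smaller than that of Megf10. Dcdc2a, of the doublecortin family, had 2.25 ± 0.765 CPM in control and 7.70 ± 2.18 in CKO, for a log2 fold change of 1.78. Atp10d, of the flippase family, had 9.68 ± 1.37 CPM in control and 25.1 ± 3.14 in CKO, for a log2 fold change of 1.38. Cask, a membrane scaffold protein, had only 126 ± 0.688 CPM in control and 158 ± 9.92 in CKO, for a log2 fold change of 0.32. A high correlation thus joined genes with very different sizes of difference, from 0.08 for Parn to 1.78 for Dcdc2a. None of the other 7 engulfment genes, whose groups all overlapped, was among these 10.

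The nearest genes of the table on either side of Megf10 had far smaller differences. Prrc1, 57.3 kb beyond its end, had 63.1 ± 9.75 CPM in control and 68.5 ± 2.46 in CKO, for a log2 fold change of 0.12 (SE 0.12, unadjusted p = 0.347 in edgeR). Slc12a2, which encodes an ion cotransporter and lies 581 kb beyond, had a log2 fold change of 0.01 (SE 0.080). On the other side C330018D20Rik, 158 kb away, had 13.2 ± 0.670 CPM in control and 16.7 ± 1.95 in CKO, for a log2 fold change of 0.34 (SE 0.13, unadjusted p = 0.0361, adjusted p = 0.9998 in edgeR). Its groups did not overlap, with CKO above control, as in 3.67% of all genes. March3, a ubiquitin ligase gene 208 kb away, had a log2 fold change of -0.20 (SE 0.29).

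The TAM receptors showed another pattern, in which the same pools were high in both groups. Mertk, on chromosome 2 (128698956–128802894), had 9.31, 5.78 and 3.85 CPM in control and 4.86, 11.1 and 6.14 in CKO. Axl, on chromosome 7 (25757273–25788705), had 71.5, 52.1 and 56.3 CPM in control and 46.9, 82.2 and 58.2 in CKO. For both genes CKO pool 2 was highest and control pool 1 next. These are the pools with the highest sums of mesenchyme and pigment cell markers. The part of that tissue in the levels of Mertk and Axl was not tested. Tyro3, also on chromosome 2 (119797733–119818104), had 37.6, 31.7 and 35.9 CPM in control and 29.1, 37.9 and 34.7 in CKO, with the same pools on top by a small margin.

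Between the groups the TAM receptors overlapped. The log2 fold change of Mertk was 0.23 (SE 0.42, 95% interval -0.79 to 1.24), and it turned to -0.19 without CKO pool 2, to -0.03 without control pool 3 and rose to 0.64 without control pool 1. That of Axl was 0.06 (SE 0.22, 95% interval -0.48 to 0.60), and it was -0.19 without CKO pool 2 and -0.02 without control pool 2. That of Tyro3 was -0.05 (SE 0.12, 95% interval -0.34 to 0.25). The interval of Mertk, the least abundant member with 69 to 218 counts, does not exclude a difference of 1 on the log2 scale in the upward direction, while those of Axl and Tyro3 do. Without both mesenchyme-rich pools the log2 fold changes of Mertk, Axl and Tyro3 were 0.21, -0.03 and -0.07.

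Axl was the leading TAM receptor transcript in each of the 6 pools. Of their summed CPM per kb, Axl made up 63.4%, 61.6% and 62.6% in control and 61.6%, 65.3% and 62.3% in CKO. Tyro3 made up 27.1%, 30.4% and 32.4% in control and 31.0%, 24.5% and 30.1% in CKO. Mertk made up 9.59%, 7.93% and 4.97% in control and 7.405%, 10.2% and 7.63% in CKO, and so varied most for its size. The shares of all 3 receptors overlapped between the groups. The sum of the 3 receptors was 19.03 ± 2.98 CPM per kb in control and 19.6 ± 5.00 in CKO, a difference smaller than the spread between pools.

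**Figure D2:**
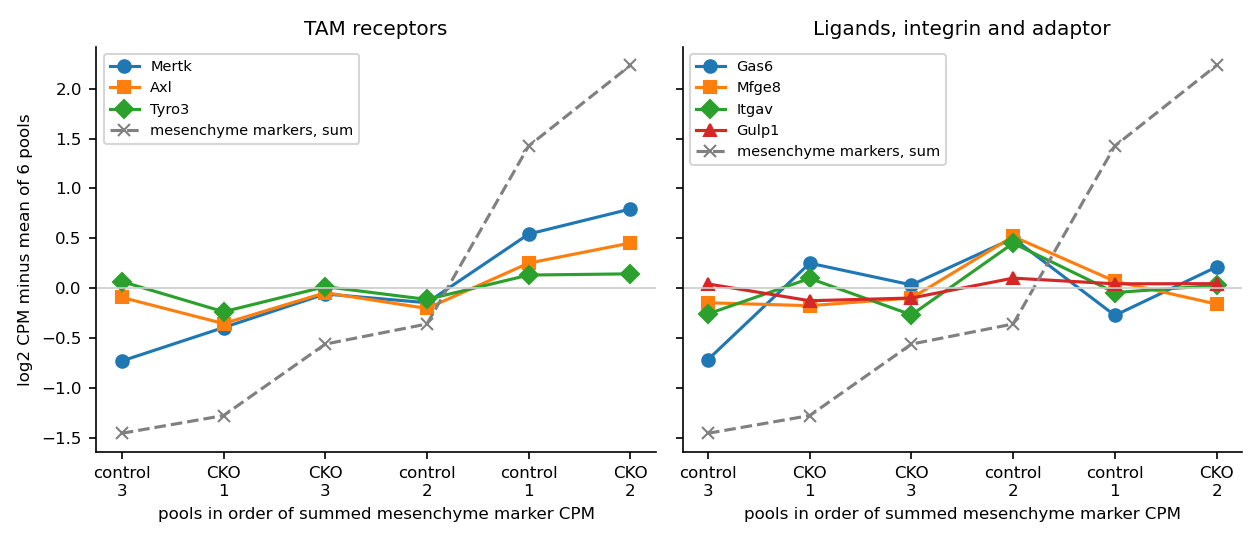
Levels of the TAM receptors (left) and of Gas6, Mfge8, Itgav and Gulp1 (right) as log2 CPM minus the mean of the 6 pools, with pools ordered by the summed CPM of mesenchyme markers (dashed grey line). Mertk and Axl are highest in both mesenchyme-rich pools, control pool 1 and CKO pool 2, whereas Gas6, Mfge8 and Itgav are highest in control pool 2.

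The bridging proteins and the integrin chain were highest in control pool 2, the pool with the highest sums of fibre, epithelium and macrophage markers and the lowest of retina markers, whose part in these levels was not tested. Gas6, on chromosome 8 (13465374–13494490), had 36.0, 61.5 and 26.5 CPM in control and 51.7, 50.4 and 44.5 in CKO. The CKO pools sat between control pool 2 and the other control pools. The group means were 41.3 ± 18.1 CPM and 48.9 ± 3.86, and the log2 fold change was 0.24 (SE 0.29, 95% interval -0.46 to 0.95). This value rested on single control pools, for it was 0.66 without control pool 2 and 0.00461 without control pool 3.

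Mfge8, on chromosome 7 (79133768–79149060), had 100.5, 137 and 86.5 CPM in control and 84.8, 85.7 and 89.4 in CKO. Only control pool 3 fell within the CKO values. The CKO pools were nearly equal, with an SD of 2.83% of their mean against 24.2% in control. The log2 fold change was -0.32 (SE 0.16, 95% interval -0.71 to 0.08) and was -0.10 without control pool 2. Itgav, on chromosome 2 (83724397–83806916), had 115, 162 and 98.9 CPM in control and 127, 121 and 98.2 in CKO, with overlapping groups. Its log2 fold change of -0.12 (SE 0.20, 95% interval -0.59 to 0.35) became 0.12 without control pool 2. Mfge8 and Itgav moved together among the control pools, where Mfge8 stood at 1.94 to 2.01 times the level of Itgav per kb, and at 1.53 to 2.09 times in CKO. Macrophages are known to make such transcripts too. The 12 macrophage markers with a row, of 14 listed, summed to 95.5 to 185 CPM in control, highest in control pool 2, and 87.2 to 113 in CKO.

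**Figure D3:**
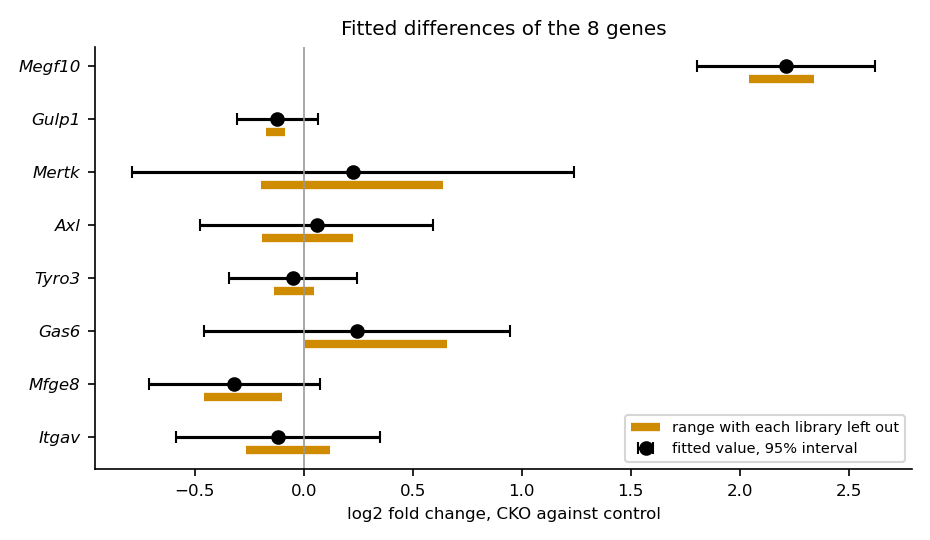
Fitted log2 fold change of each gene, CKO against control, with its 95% interval (black) and the range of the value when each library is left out in turn (orange). Megf10 lies at 2.21 and the other 7 between -0.32 and 0.24, each with an interval that holds 0.

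Taken over the 8 genes, 4 had a positive and 4 a negative log2 fold change, with a median of 0.01, beside a median of 0.00187 over all 12879 genes tested, of which 50.6% were positive. Without Megf10 the median was -0.05 and the group means differed by factors of 0.802 to 1.18. After adjustment over all genes, edgeR's quasi-likelihood test called 0 of 12879 (0.0%) at 0.05, DESeq2 85 of 12866 (0.661%) and limma voom 0. Without adjustment, 457 genes (3.55%) passed 0.05 in edgeR, 1.3% higher and 2.24% lower in CKO. Scaling by library totals alone moved the median of all genes by 0.101, which made 6 of the 8 genes positive and turned the unadjusted split to 428 higher and 191 lower. The adjusted count in edgeR was 8 without control pool 2 and 1 without control pool 3.

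Levels of different genes were compared per kb of merged exon, and their order depends on this choice of length. In control the order was Mfge8 (23.0 ± 5.58 CPM per kb), Gas6 (16.2 ± 7.11), Gulp1 (15.9 ± 0.370), Axl (11.9 ± 2.02), Itgav (11.6 ± 3.04), Tyro3 (5.66 ± 0.488), Megf10 (2.66 ± 0.297) and Mertk (1.46 ± 0.639). Mfge8 and Gas6, Gas6 and Gulp1, and Axl and Itgav overlapped with their neighbour over the 3 pools, and the other neighbours did not. Megf10 was thus second to last, below Tyro3 in all 3 control pools. In CKO the order was Gas6 (19.2 ± 1.51), Mfge8 (18.5 ± 0.523), Gulp1 (14.6 ± 0.948), Axl (12.4 ± 3.58), Megf10 (12.3 ± 2.55), Itgav (10.7 ± 1.39), Tyro3 (5.47 ± 0.716) and Mertk (1.70 ± 0.758). Here Gas6 and Mfge8, Gulp1 and Axl, Axl and Megf10, and Megf10 and Itgav overlapped. By this length, Megf10 had moved to a place among Axl and Itgav, above Tyro3 in every CKO pool. The longest transcript is much shorter than the merged exons for Itgav (7054 against 10744 bases) and Mfge8 (2330 against 4694). It is nearly as long for Megf10 (7514 against 7718) and the same for Gas6 (2548). With the longest transcript, Itgav would stand above Megf10, and Mfge8 above Gas6, in every CKO pool. Among all genes with a length, the mean level of Megf10 per kb of merged exon ranked 10102 of 12823 in control and 4283 in CKO.

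**Figure D4:**
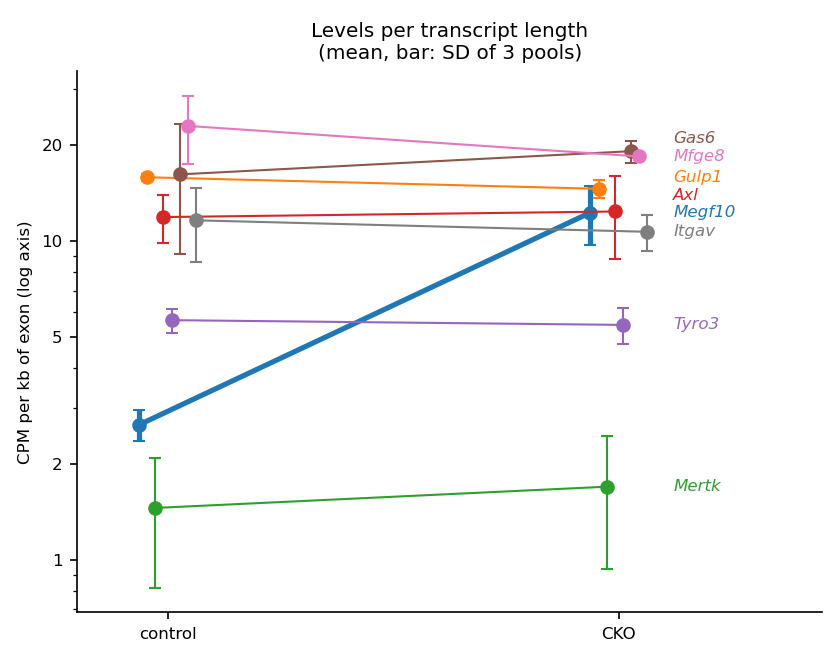
Mean level per length of each gene in control and CKO pools, in CPM per kb of exon on a log axis, with bars for the SD of 3 pools. Megf10 goes from 2.66 to 12.3 while the group means of the other 7 differ by factors of 0.802 to 1.18.

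The rest of the uptake pathway was followed in 7 lists of 90 genes outside the 8, of which 78 had a row and were tested. After adjustment edgeR, DESeq2 and limma voom each called 0 of the 78, and without it 4 (5.13%) passed 0.05 in edgeR, beside 3.55% of all genes. All 4 were lower in CKO, and 2.24% of all genes were lower at that level. This count moved with single pools, and so did the count over all genes, which was 457 with all pools. The pathway count was 16 without control pool 3, of which 13 were lower and 3 higher, where 1243 of all genes passed. It was 1 without control pool 1, CKO pool 1 or CKO pool 3, where 319, 323 and 268 of all genes passed. Without both mesenchyme-rich pools it was 0, beside 185 of all genes. In the 78 genes 34 had a positive and 44 a negative log2 fold change, with a median of -0.04, and with library totals alone 52 and 26. Syk, Ap2m1, Mon1b, Rubcn and Adam10 (6.41% of the 78) had groups that did not overlap, each lower in CKO. Of all genes, 4.69% had no overlap with CKO below control, and 8.36% had none in either direction. Syk, a signalling kinase that the rule for named genes did not pick, was named after its values were seen.

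Other engulfment receptors gave 0 of 12 at an unadjusted p under 0.05, beside 3.55% of all genes, with a median log2 fold change of 0.04. Lrp1, a large scavenger and endocytic receptor, was the most abundant, with 421 ± 55.3 CPM in control and 436 ± 74.1 in CKO. Stab1, a phosphatidylserine receptor of macrophages and vessel cells, had a log2 fold change of -0.49 (SE 0.28). Trem2, a receptor of myeloid cells, had 2.36 ± 1.11 CPM in control and 1.41 ± 0.220 in CKO. Of the beta chains that pair with Itgav, 3 of 5 had a row, and 0 passed. Itgb5 had a log2 fold change of -0.25 (SE 0.22), Itgb8 of 0.22 (SE 0.15) and Itgb1 of -0.04 (SE 0.14).

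Bridging proteins and surface signals gave 2 of 15 genes (13.3%) at an unadjusted p under 0.05, beside 3.55% of all genes. The median log2 fold change of this list was -0.21, beside 0.00187 over all genes tested. C1qa, a chain of the complement protein C1q, which can coat dying cells and bind Megf10, had 9.63 ± 3.29 CPM in control and 5.56 ± 0.956 in CKO, for a log2 fold change of -0.79 (SE 0.29, unadjusted p = 0.0315, adjusted p = 0.9998 in edgeR). Its groups overlapped. The other C1q chains, C1qb and C1qc, had log2 fold changes of -0.44 (SE 0.26, unadjusted p = 0.136 in edgeR) and -0.38 (SE 0.27, unadjusted p = 0.203). Their groups overlapped too. C1qa is also on the list of macrophage markers and so is part of their sum, which was highest in control pool 2. Its own highest value, 12.8 CPM, was in that pool, and the part of macrophages in its level was not tested. Lgals3, which encodes galectin-3, had 1.80 ± 0.661 CPM in control and 0.846 ± 0.265 in CKO, for a log2 fold change of -1.09 (SE 0.43, unadjusted p = 0.0399, adjusted p = 0.9998), from only 11 to 33 counts. Calr, for the surface signal calreticulin, had 639 ± 105 CPM in control and 628 ± 37.7 in CKO. Tub, for a bridging protein of Mertk, had a log2 fold change of 0.04 (SE 0.30). Pros1, the other ligand of the TAM receptors, had a log2 fold change of -0.21 (SE 0.22). Gas6 was the more abundant of both ligands per kb in every pool, at 1.98 to 5.33 times the level of Pros1 in control and 3.56 to 6.67 times in CKO.

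Inside the engulfing cell, 1 of 21 signalling genes (4.76%) and 1 of 15 genes of phagosome maturation (6.67%) had an unadjusted p-value under 0.05. The share over all genes was 3.55%. Ap2m1, a subunit of the clathrin adaptor AP-2, had 44.6 ± 2.51 CPM in control and 37.98 ± 0.852 in CKO, for a log2 fold change of -0.23 (SE 0.080, unadjusted p = 0.0232, adjusted p = 0.9998 in edgeR), and its groups did not overlap. Rubcn, which is needed for LC3 to be attached to phagosomes, had 55.7 ± 1.43 CPM in control and 47.0 ± 3.36 in CKO, for a log2 fold change of -0.25 (SE 0.083, unadjusted p = 0.0213, adjusted p = 0.9998), with groups that did not overlap. The small GTPase Rac1, which drives the membrane around the target, had a log2 fold change of -0.01 (SE 0.12), and Cltc, the clathrin heavy chain, one of -0.14 (SE 0.15). Vav2, an activator of Rac1, had one of -0.15 (SE 0.091). In maturation, Rab14 had a log2 fold change of 0.03 (SE 0.066), Lamp1 of -0.12 (SE 0.14) and Mon1b of -0.15 (SE 0.084).

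Exposure of phosphatidylserine gave 0 of 8 genes at an unadjusted p under 0.05, beside 3.55% of all genes. The flippase genes Atp11a and Tmem30a had log2 fold changes of -0.11 (SE 0.092) and -0.05 (SE 0.11), and the channel gene Panx1 one of 0.14 (SE 0.18). Of the 4 genes that carboxylate the TAM ligands or shed the receptors, 0 passed. The sheddase gene Adam10 had 351 ± 59.8 CPM in control and 286 ± 12.7 in CKO, for a log2 fold change of -0.29 (SE 0.13, unadjusted p = 0.0553 in edgeR), with groups that did not overlap, and Adam17 one of -0.20 (SE 0.13).

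**Figure D5:**
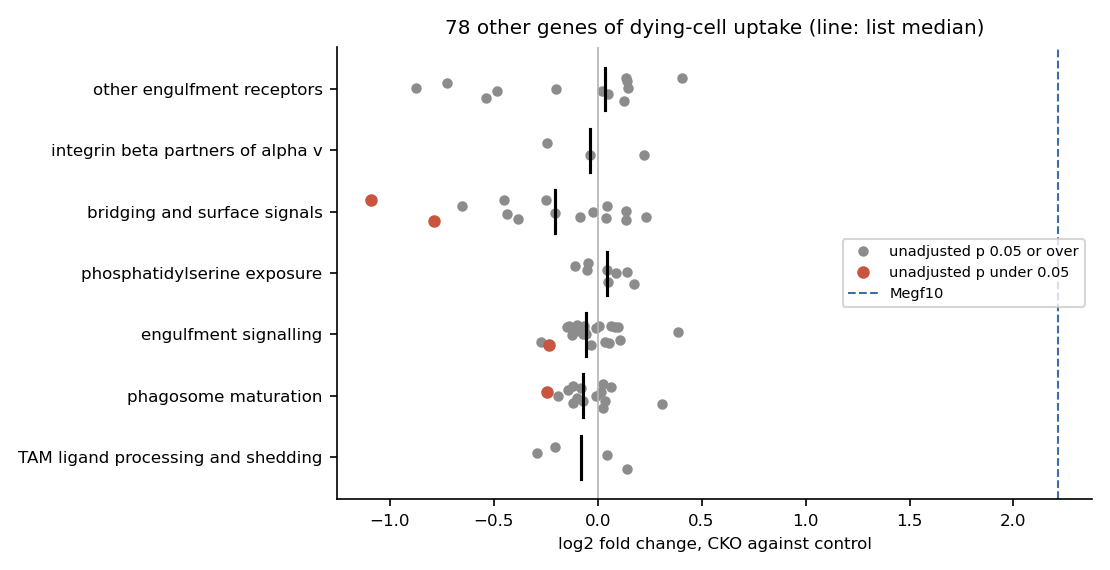
Log2 fold change, CKO against control, of the 78 other genes tested, by list, with the list median as a black line and genes that passed 0.05 without adjustment in red. The 4 red genes are all below 0, all 78 lie between -1.09 and 0.41, and the value of Megf10, 2.21, is drawn as a dashed line.

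Words that match the GATA consensus (AGATAA and its variant AGATAG, with TGATAA and its variant TGATAG) were sought on both strands of the RefSeq promoter windows of GRCm38.p6 (250 bases before to 50 after the start). Gulp1, Mertk, Axl, Tyro3, Gas6, Mfge8 and Itgav had a window, and 0 of these 7 held such a word, beside 29.8% of all 32851 windows and 21.1% of the 10084 genes of the table with a window. This says only that the letters are not in these 300 bases. Megf10 had no window and was not searched, so the result does not bear on it. Exons of Itgav share 634 of 10744 bases with Gm13684 and those of Gas6 share 34 of 2548 with Tmem255b, both on the opposite strand. The strand option of the counting is not stated, so fragments of these partners cannot be told apart, and the other 6 genes share no exon base with another gene of the annotation.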

How the data were processed

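Strand-specific paired-end libraries from 3 control and 3 CKO pools were mapped by the authors to mm10 (TopHat2 2.0.13), and fragments per RefSeq gene were counted (HTSeq 0.6.1). The table the authors deposited holds these raw counts without normalization. It lists genes that the authors kept for a mean FPKM over 1 in at least 1 of the groups. How strand and overlapping genes were handled in counting is not given in the sources used here. Pool numbers follow the sample titles.

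For the comparison, edgeR 4.0.16 under R 4.3.3 was run with TMM factors, a robust quasi-likelihood fit, and Benjamini-Hochberg adjusted p-values at 0.05. A gene entered with 10 or more counts in 3 or more libraries, which left 12879. The SE is the size of the log2 fold change over the root of its F statistic, and log2 CPM had a prior count of 1. Exon lengths and positions were read from GENCODE M21 (GRCm38), where 62 genes found no match. Controls are described as littermates of the mutants, but which embryos went into which pool is not given in the sources used here, so p-values measure the spread between these pools, which with 3 a group limits precision more than depth does. The members and lists were chosen with earlier results of these data known.

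Named genes are the members, the 2 most abundant and the 2 of lowest p in each list, the 10 most like Megf10, the 2 nearest genes on each side of it, and Gata3. Pros1 was added as the other TAM ligand, after its values were seen. The tests were checked on simulated data. Alternatives were DESeq2 1.42.0, limma voom (limma 3.58.1), other scaling and filters, the pool number as a block, and leaving out each library. Leaving out both mesenchyme-rich pools was added after seeing the data.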

Additional observations from a re-analysis of the deposited data

How the results depend on the processing

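Under the 9 other settings that kept all libraries (scaling, filters, DESeq2, limma voom and the replicate block), 71 of 72 log2 fold changes of the 8 genes moved by less than the spread between pools, and that of Gulp1 went to -0.0146 with library totals only, a scaling that moved the median of all genes by 0.101 and made Tyro3 (0.05), Itgav (0.00426) and the median of the 78 pathway genes (0.07) positive. DESeq2 called 85 genes and library totals only 1, where edgeR called 0. Of the 78 pathway genes, the number with an unadjusted p-value under 0.05 was 2 in limma voom, 7 with the replicate block and 0 without both mesenchyme-rich pools, a choice made after seeing the data. Over all genes the same number was 435, 516 and 185 in these settings, against 457 in the main fit.

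Leaving out single libraries gave log2 fold changes of 2.04 to 2.34 for Megf10, -0.17 to -0.09 for Gulp1, -0.19 to 0.64 for Mertk, -0.19 to 0.23 for Axl and -0.14 to 0.05 for Tyro3. They were 0.00461 to 0.66 for Gas6, -0.45 to -0.10 for Mfge8 and -0.26 to 0.12 for Itgav. The number of calls over all genes was 0 to 8 (8 without control pool 2 and 1 without control pool 3), and the number of pathway genes with an unadjusted p-value under 0.05 was 1 to 16 (1 without control pool 1, CKO pool 1 or CKO pool 3, and 16 without control pool 3). Over all genes that number moved too, from 268 without CKO pool 3 to 1243 without control pool 3. The difference in the Axl share of the TAM receptors, CKO minus control, was -0.61 to 1.25 percentage points, against 0.52 with all pools. The cause of these shifts was not tested.

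Pools with the same number did not consistently deviate together. The correlation over genes of their deviations from the group means was -0.487, 0.0899 and 0.442 for pools 1, 2 and 3. It was 0.558 for control pool 1 with CKO pool 2, which differ in number. The numbers were therefore not taken as pairs. The block, which gave Megf10 a log2 fold change of 2.197, changed no call over all genes.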
